A study of Mus musculus with 11 samples.

Results

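The genes of the mitochondrial respiratory chain and of the ATP synthase were followed in alveolar macrophages of mice during and after a model of macrophage activation syndrome (MAS). Members were chosen by symbol. These were the genes that start with Nduf, Uqcr or Atp5, the Cox4 to Cox8 subunits of cytochrome c oxidase, Sdha to Sdhd, Cyc1 and Cycs, with pseudogenes left out. The rule found 95 of the 19505 genes with a symbol on the array. They were 38 genes of complex I, 8 assembly factors of complex I (Ndufaf1 to Ndufaf8), 4 of complex II, 9 of complex III, cytochrome c itself, 18 of complex IV and 17 of the ATP synthase. Of these, 93 passed the filter on low values and were tested among 12146 genes, and Cox8b and Ndufa4l2 were not.

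All mice were female C57BL/6J animals bought at 6 weeks of age, and each gave 1 array. Resolution samples (n = 4) came from mice lavaged on day 30, after 5 injections of CpG 1826, a DNA oligonucleotide that activates the receptor Tlr9, over the first 10 days. Acute samples (n = 3) came from mice given the same course of CpG 1826 and lavaged on day 10. Control samples (n = 4) came from mice given 5 injections of the PBS vehicle and likewise lavaged on day 10. In the comparison of resolution with control, the past CpG 1826 course and the day of lavage therefore cannot be told apart. The macrophages were taken from bronchoalveolar lavage by adherence.

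The respiratory chain sits in the inner mitochondrial membrane. Complex I takes electrons from NADH and complex II takes them from succinate, both pass them through ubiquinone to complex III, cytochrome c carries them on, and complex IV gives them to oxygen. Complexes I, III and IV pump protons, and the ATP synthase lets the protons back to make ATP. Resting alveolar macrophages are known to rely on this route more than many other macrophages do, and macrophages given Toll-like receptor ligands often shift toward glycolysis. Most subunits come from nuclear genes. The subunits encoded in mitochondrial DNA were not analysed here.

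The samples matched their label as macrophages: all 14 alveolar macrophage markers on the array were above background on every array, with a summed level of 19.10 to 19.16 log2 in resolution, 19.14 to 19.23 in acute and 19.23 to 19.34 in control samples, background being the 90th percentile of the 23 control probe sets with no mouse target. The median intensity of every array was at least 51.4, and 8731 to 8952 genes were above background. Other cells left some signal. Among 6 neutrophil markers, 4 were above background on every array. Their sum was 12.10 to 12.95 log2 in resolution, 12.12 to 12.44 in acute and 11.69 to 13.34 in control samples. Of 6 dendritic cell markers, 4 were above background on no array. The sum was 9.64 to 10.14 log2 in resolution, 10.07 to 10.54 in acute and 9.65 to 10.20 in control samples. In the same order, the 4 monocyte markers summed to 7.17 to 7.61, 7.49 to 8.43 and 7.31 to 7.53 log2. Among 14 airway epithelial markers, 8 were above background on every array and Sftpb, Krt18 and Muc5b on none, and their summed level was 12.80 to 13.25 log2 in resolution, 14.28 to 15.30 in acute and 13.20 to 13.46 in control samples. Among 10 T and NK cell markers, 7 were above background on no array (Cd3e, Cd3g, Cd8a, Nkg7, Gzma, Gzmb and Ncr1), and the sum was 8.29 to 8.52 log2 in resolution, 9.08 to 9.54 in acute and 8.41 to 8.75 in control samples. Of 6 interstitial macrophage markers, Cx3cr1, Folr2 and Lyve1 were above background on no array, and the sum was 9.08 to 10.19 log2 in resolution, 9.50 to 10.29 in acute and 8.23 to 8.69 in control samples. Of the 4 genes listed for eosinophils (Epx, Prg2, Siglece and Ccr3), 1 was above background on every array and Epx on none. They summed to 10.02 to 10.24 log2 in resolution, 8.77 to 9.22 in acute and 8.79 to 9.18 in control samples. In this sum the resolution samples lay wholly above the others, but with so few genes above background it is not read as a measure of eosinophils. The only red cell marker on the array, Alas2, ran from 5.54 to 7.25 log2 in resolution, 6.99 to 15.15 in acute and 5.72 to 6.70 in control samples. The part of these cells, and of the lower alveolar macrophage sum in resolution than in control, in the results on the respiratory chain was not tested.

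The promoters of the family were searched for short motifs known for nuclear regulators of respiration. Of the 95 members, 78 matched a promoter in RefSeq (GRCm38.p6), with 83 promoters of 300 bases in all, 250 before and 50 after the gene's start. A core of the nuclear respiratory factor 1 site, GCATGCG on either strand, stood in 14 of the 83 (16.9%), against 4.44% of the 21262 promoters of protein-coding genes. The ETS core CCGGAAG, which the GA-binding protein uses, stood in 19 (22.9%), against 11.6%. A YY1 core, AANATGG, stood in 23 (27.7%), against 15.1%, and the core AAGGTCA of the oestrogen-related receptors in 8 (9.64%), against 4.08%. These are letter matches in a window, not measured binding, and the promoters compared were not matched for base content. The promoters of Ndufaf7 (chr17:78936885-78937184, plus strand) and Cox7a2l (chr17:83514284-83514583, minus strand) are shown because these were the only members to pass a test. Those of Cycs (chr6:50566520-50566819, minus strand) and Atp5k (chr5:108434350-108434649, minus strand) are shown as promoters that do hold the motifs. All are written 5′ to 3′ along the gene, with matches in capitals.
Ndufaf7: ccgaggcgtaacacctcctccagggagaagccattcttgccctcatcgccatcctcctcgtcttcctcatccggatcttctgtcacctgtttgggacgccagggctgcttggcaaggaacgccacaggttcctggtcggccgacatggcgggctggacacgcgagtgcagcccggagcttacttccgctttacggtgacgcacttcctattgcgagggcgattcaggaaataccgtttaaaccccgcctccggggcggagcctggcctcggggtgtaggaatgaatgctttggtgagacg
Cox7a2l: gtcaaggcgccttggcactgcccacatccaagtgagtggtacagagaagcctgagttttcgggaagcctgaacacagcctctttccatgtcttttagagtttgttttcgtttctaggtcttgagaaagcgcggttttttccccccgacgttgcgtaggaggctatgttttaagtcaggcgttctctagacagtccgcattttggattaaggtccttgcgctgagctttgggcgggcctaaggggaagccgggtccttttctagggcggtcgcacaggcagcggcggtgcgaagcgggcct
Cycs: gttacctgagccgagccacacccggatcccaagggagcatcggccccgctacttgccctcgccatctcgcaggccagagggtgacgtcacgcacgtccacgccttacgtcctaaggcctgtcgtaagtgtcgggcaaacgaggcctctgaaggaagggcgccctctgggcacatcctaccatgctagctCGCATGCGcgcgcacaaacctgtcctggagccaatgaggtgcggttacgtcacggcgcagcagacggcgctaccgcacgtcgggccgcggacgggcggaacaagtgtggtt
Atp5k: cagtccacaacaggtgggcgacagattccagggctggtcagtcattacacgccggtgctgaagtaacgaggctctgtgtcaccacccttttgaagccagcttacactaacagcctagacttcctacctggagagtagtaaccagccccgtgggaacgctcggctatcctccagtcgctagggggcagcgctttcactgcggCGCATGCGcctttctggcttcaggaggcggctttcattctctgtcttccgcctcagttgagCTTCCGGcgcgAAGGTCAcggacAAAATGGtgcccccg
Neither the Ndufaf7 nor the Cox7a2l window holds any of the 4 motifs, and nothing follows from that about the factors. The Cycs window holds the nuclear respiratory factor 1 core on both strands, overlapping by all but 1 base and starting 61 bases before the gene's start. The Atp5k window, of a gene for the small membrane subunit e of the ATP synthase, holds all 4. Its nuclear respiratory factor 1 core lies 49 bases before the start, and the ETS, oestrogen-related receptor and YY1 cores lie after it.

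Most transcripts of the chain were above background and spanned under 1 log2 across the arrays. Of the 95 members, 89 were above background on all 11 arrays. Levels are given as log2 of the deposited intensity plus 1, and the level of 1 gene is not set against that of another as an amount. Over the 11 arrays the median member spanned 0.52 log2 between its lowest and highest array, and 83 of the 93 tested members spanned under 1. Atp5b, the catalytic beta subunit of the ATP synthase, spanned least, at 0.085 log2. The median span was 0.52 log2 for the ATP synthase, 0.56 for complex I, 0.47 for complex II, 0.43 for complex III and 0.38 for complex IV. The complex I assembly factors had the widest median span, at 0.97 log2. The widest spans were those of Ndufaf7 (1.81 log2), Ndufs7 (1.68), Ndufaf1 (1.67) and Ndufb8 (1.46). Their signals were dimmer, with control means of 9.97, 8.74, 6.92 and 9.91 log2, against 16.70 for Atp5b. Spans were not adjusted for signal level, and no span over all genes was set beside them. Whether the complexes differ in span beyond signal level was not tested.

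Set against PBS controls, the macrophages lavaged after resolution had 2 members higher and none lower. The higher ones were Cox7a2l, 1.54-fold, and the assembly factor Ndufaf7, 1.74-fold, by limma with Benjamini-Hochberg adjustment over 12146 genes at 0.05. That was 2.15% of the 93 members, in a comparison where 18.6% of all genes passed, 9.6% higher and 9% lower. At an unadjusted p under 0.05 there were 4 members (Ndufaf7, Cox7a2l, Ndufb10 and Cox6b2; 4.3%), against 31.3% of all genes. The median difference of the members was 0.08 log2, and that of all genes 0.00. In these bulk samples, fewer cells of a type and less RNA per cell cannot be told apart.

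In the acute phase none of the 93 members passed in either direction against control. Only 29 of 12146 genes did in this comparison (0.239%, with 0.189% higher and 0.0494% lower), so a count of 0 says little about the members. Without adjustment, 1 member (Ndufv2, 1.08%) had a p under 0.05, against 9.06% of all genes. The members' differences were positive in 74 of 93, with a median of 0.08 log2, against -0.00 over all genes. When acute replicate 1 was left out 85 were positive with a median of 0.14, and without acute replicate 3 there were 63, with a median of 0.04.

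Between resolution and acute samples, Ndufaf7 was again the only member to pass, 1.81-fold higher, and no member was lower. Of all genes, 14.4% passed in this comparison, 7.76% higher and 6.69% lower. At an unadjusted p under 0.05 there were 2 members, Ndufaf6 and Ndufaf7, both assembly factors (2.15%), against 28.8% of all genes. The median of the members was -0.01 log2, and 41 of 93 differences were positive. The 3 comparisons share their samples and are given side by side, not as separate evidence.

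The 95% intervals give how large a change the data leave room for, counted here over all 93 tested members, those that passed included. Against control, the interval stayed within 1.5-fold in either direction for 81 members after resolution (87.1%, against 51.3% of all genes). In the acute phase it did so for 77 members (82.8%, against 62.2%). Between resolution and acute it did so for 78 (83.9%, against 45.8%). The interval stayed within 2-fold for 91 members between resolution and control, for all 93 between acute and control and for 90 between resolution and acute. The exceptions were Ndufs7 and Ndufaf7 between resolution and control, and these together with Ndufaf6 between resolution and acute. The median standard error of a member was 0.13 log2 between resolution and control, where that of all genes was 0.16.

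**Figure D1:**
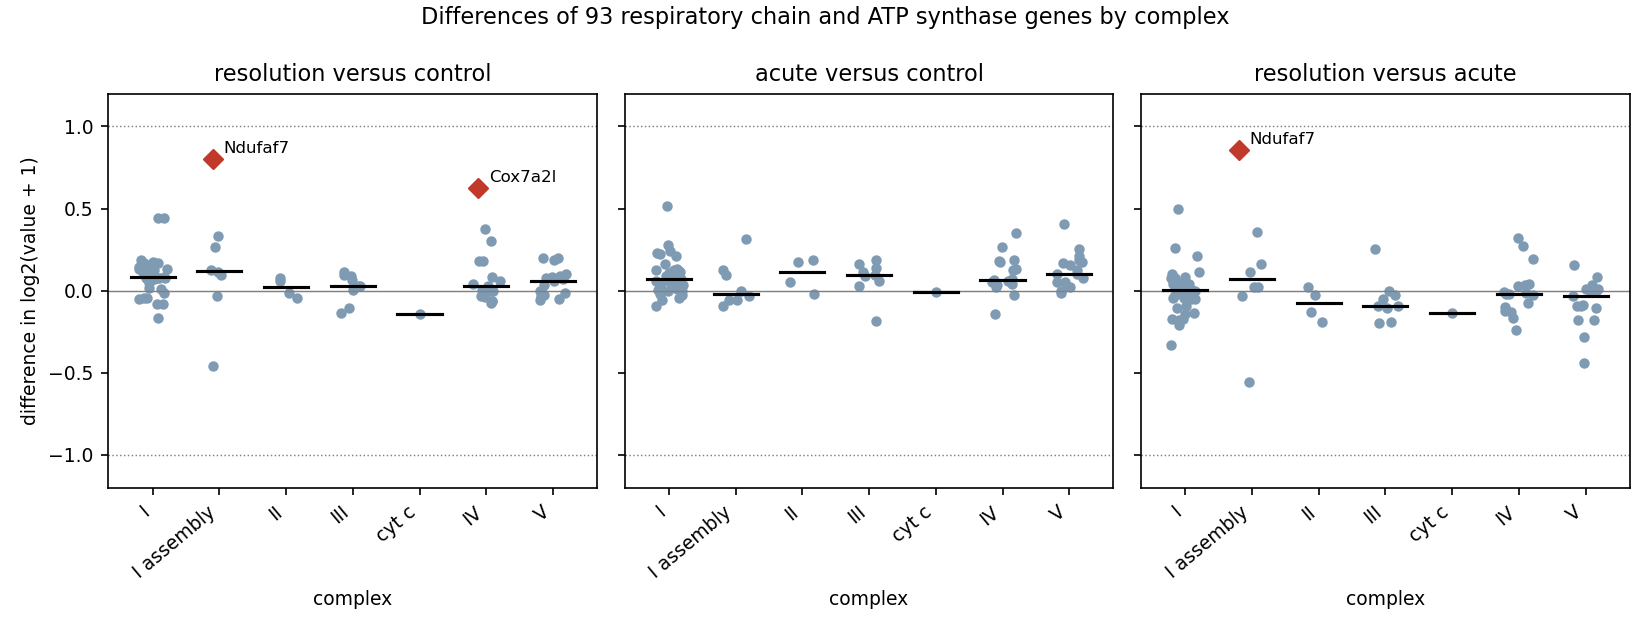
Difference in log2(value + 1) of each of the 93 tested members, 1 point a gene, grouped by complex along the horizontal axis (V stands for the ATP synthase), in 3 comparisons. Bars are medians, red diamonds are members that passed limma at an adjusted p of 0.05, and dotted lines mark a 2-fold difference; only Cox7a2l and Ndufaf7 between resolution and control, and Ndufaf7 between resolution and acute, are diamonds.

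The Cox7a2l protein, related to subunit 7a of complex IV, is known to join complex III to complex IV in supercomplexes, and the C57BL/6J strain is known to carry a shortened form of it. Its level was 12.51, 13.08, 12.64 and 12.88 log2 in resolution samples, 12.40, 12.57 and 12.55 in acute samples and 12.07, 12.20, 11.80 and 12.55 in control samples. Control replicate 4 exceeded the lowest resolution sample, so the groups overlapped, and the acute mean lay between the other means. The means were 12.78 ± 0.25 (SD, n = 4) in resolution, 12.51 ± 0.09 (n = 3) in acute and 12.15 ± 0.31 (n = 4) in control samples. The difference between resolution and control was 0.62 log2 (SE 0.17, 95% interval 0.26 to 0.98, limma adjusted p = 0.0204). The acute samples differed from control by 0.35 log2 (SE 0.18, adjusted p = 0.599), and resolution from acute by 0.27 (SE 0.18, adjusted p = 0.355), neither past the threshold. The call rested on few samples. The adjusted p was 0.0527 without control replicate 1, 0.0595 without control replicate 3, 0.0563 without resolution replicate 2 and 0.0516 without resolution replicate 4.

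Ndufaf7 is a methyltransferase needed for the assembly of complex I. Its level was 10.63, 11.29, 11.00 and 10.16 log2 in resolution samples, 10.28, 9.48 and 9.97 in acute samples and 9.95, 10.19, 9.65 and 10.08 in control samples. The first 3 resolution samples were above all the others, while resolution replicate 4 lay among them, so the groups overlapped. The means were 10.77 ± 0.49 (SD, n = 4) in resolution, 9.91 ± 0.41 (n = 3) in acute and 9.97 ± 0.23 (n = 4) in control samples. The difference between resolution and control was 0.80 log2 (SE 0.24, interval 0.29 to 1.32, limma adjusted p = 0.0333). That between resolution and acute was 0.86 log2 (SE 0.26, interval 0.30 to 1.41, adjusted p = 0.0425), and acute differed from control by -0.05 (SE 0.26, adjusted p = 0.973). Against control the call ended when control replicate 1 (adjusted p = 0.0672), control replicate 3 (0.0919), resolution replicate 2 (0.0910) or resolution replicate 3 (0.0882) was left out. It also ended under median scaling of the arrays (0.0576). With control replicates 3 and 4 and resolution replicate 2 left out together, the difference was 0.52 log2 with an adjusted p of 0.270. Against acute it ended in 13 of the 22 alternatives tried, with an adjusted p of 0.166 without acute replicate 2.

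**Figure D2:**
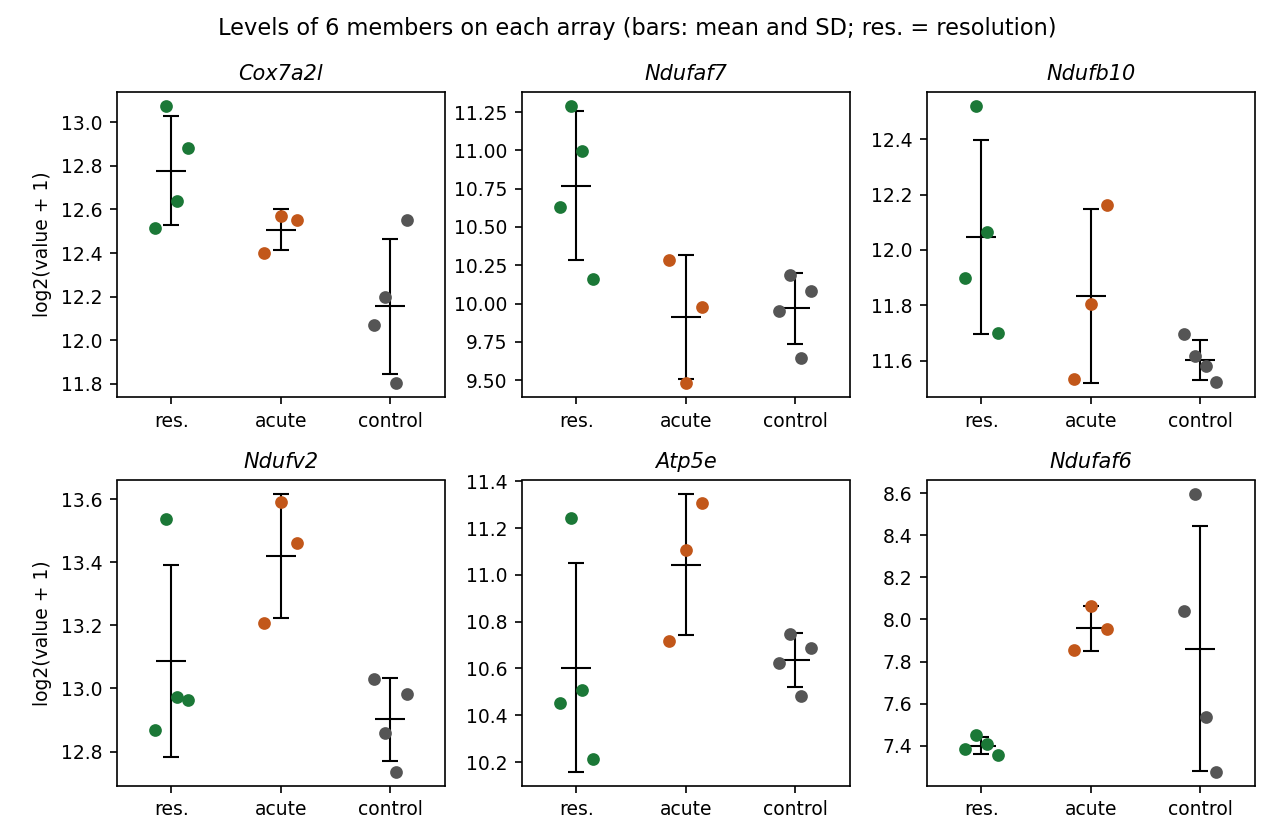
Level in log2(value + 1) of 6 members on each array, in resolution (n = 4), acute (n = 3) and control (n = 4) samples. Points are arrays and bars are the mean and SD; the groups overlap for Cox7a2l and Ndufaf7, and the 4 resolution samples of Ndufaf6 lie together below the acute ones.

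The other assembly factors of complex I did not pass in any comparison. Ndufaf6, known to act early in complex I assembly and named here after its values were seen, had 7.39, 7.45, 7.41 and 7.35 log2 in resolution samples, 7.85, 8.07 and 7.95 in acute samples and 8.04, 8.59, 7.54 and 7.28 in control samples. Its resolution samples lay apart from and below the acute ones, while the control samples spread across both. Ndufaf6 and Uqcrc1 were the 2 members with resolution samples wholly below acute ones (2.15%, against 12.9% of all genes). No member lay wholly above (13.5% of all genes did). The difference between resolution and acute was -0.56 log2 (SE 0.24, limma adjusted p = 0.147). Fitted on these groups alone, it passed at 0.0143. Against control the difference was -0.46 (SE 0.22, adjusted p = 0.180), and it moved with single control arrays, to -0.66 without replicate 4 (adjusted p = 0.0420) and to -0.22 without replicate 2 (adjusted p = 0.421). Ndufaf5, which hydroxylates the core subunit Ndufs7, had the smallest p of the assembly factors between acute and control (0.31 log2, SE 0.22, adjusted p = 0.709). The median difference of the 8 factors was 0.12 log2 between resolution and control, -0.02 between acute and control and 0.07 between resolution and acute. With single arrays left out it ran from 0.08 to 0.20 between resolution and control, from -0.08 to 0.05 between acute and control and from 0.03 to 0.16 between resolution and acute.

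None of the 37 tested complex I genes passed in any comparison. Their median difference was 0.08 log2 between resolution and control, 0.07 between acute and control and 0.00 between resolution and acute. These medians moved with single arrays. Without resolution replicate 2 the median was -0.02 between resolution and control and -0.10 between resolution and acute, and without acute replicate 3 it was 0.014 between acute and control. Ndufv2, a core subunit with an iron-sulfur cluster beside the site of NADH oxidation, had the smallest p among them in both comparisons with the acute samples. Its level was 12.87, 13.54, 12.97 and 12.96 log2 in resolution samples, 13.21, 13.59 and 13.46 in acute samples and 13.03, 12.86, 12.74 and 12.98 in control samples. Every acute sample was above every control sample, and only resolution replicate 2 reached the acute range. Acute differed from control by 0.52 log2 (SE 0.17, interval 0.15 to 0.88, limma unadjusted p = 0.00917, adjusted p = 0.341). Resolution differed from acute by -0.33 (SE 0.17, adjusted p = 0.214), and without resolution replicate 2 by -0.48 with an adjusted p of 0.0338.

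Ndufb10, a membrane-arm accessory subunit, had 11.90, 12.52, 12.07 and 11.70 log2 in resolution samples, 11.53, 11.81 and 12.16 in acute samples and 11.70, 11.62, 11.58 and 11.52 in control samples. It was the only member whose resolution samples were all above the control samples (1.08% of members, against 11.4% of all genes), by a margin at the closest pair that does not show in 2 decimals. The difference was 0.44 log2 (SE 0.18, limma adjusted p = 0.105), and 0.28 without resolution replicate 2. Ndufs7, the core subunit of the last iron-sulfur cluster before ubiquinone, had the widest span of the subunits. It had 8.89, 9.78, 8.89 and 9.15 log2 in resolution samples, 8.13, 9.07 and 8.85 in acute samples and 8.59, 9.20, 8.10 and 9.07 in control samples. All 3 groups overlapped, and its difference between resolution and control was 0.44 log2 (interval -0.17 to 1.05, adjusted p = 0.318).

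Among the core subunits of complex I, Ndufs1, the largest, averaged 7.57 ± 0.48 log2 in resolution (SD, n = 4), 7.32 ± 0.30 in acute (n = 3) and 7.41 ± 0.24 in control samples (n = 4). Ndufv1, which binds NADH and the flavin, averaged 13.23 ± 0.21 log2 in resolution, 13.16 ± 0.11 in acute and 13.19 ± 0.14 in control samples. Neither passed the test in any comparison, and between resolution and control the limma adjusted p was 0.664 for Ndufs1 and 0.841 for Ndufv1. Ndufa4, first assigned to complex I and now to complex IV, averaged 14.48 ± 0.24 in resolution, 14.50 ± 0.06 in acute and 14.52 ± 0.14 in control samples, and its 3 differences lay between -0.04 and -0.02 log2. Its paralogue Ndufa4l2, known as a gene induced by low oxygen, was below background on all arrays, at 3.41 to 3.66 log2.

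Complex II, which is also succinate dehydrogenase of the citric acid cycle, had no member past the threshold in any comparison. Sdha, the flavoprotein that oxidises succinate, had 10.16, 10.25, 10.18 and 9.99 log2 in resolution samples, 10.07, 9.98 and 10.45 in acute samples and 10.33, 10.40, 9.95 and 10.08 in control samples. The groups overlapped fully, and its interval between acute and control ran from -0.35 to 0.31 log2. Sdhb, the iron-sulfur subunit, averaged 14.17 ± 0.12 in resolution, 14.36 ± 0.08 in acute and 14.18 ± 0.05 in control samples. Its 3 acute samples were above all control samples, yet the difference of 0.18 log2 had a limma adjusted p of 0.670, and that between resolution and acute was -0.19 (adjusted p = 0.289). The membrane anchors gave no call either. Sdhc, with the smallest p between resolution and control (0.08 log2, adjusted p = 0.711), averaged 8.36 ± 0.09 in resolution, 8.34 ± 0.10 in acute and 8.29 ± 0.18 in control samples. Sdhd averaged 10.53 ± 0.28 in resolution, 10.66 ± 0.25 in acute and 10.47 ± 0.23 in control samples.

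Complex III and cytochrome c, which carry electrons between ubiquinone and complex IV, had no call in any comparison. The Rieske iron-sulfur protein Uqcrfs1 averaged 10.87 ± 0.10 log2 in resolution (SD, n = 4), 11.07 ± 0.13 in acute (n = 3) and 10.98 ± 0.05 in control samples (n = 4). Cyc1, the cytochrome c1 subunit, averaged 15.24 ± 0.09 in resolution, 15.26 ± 0.08 in acute and 15.15 ± 0.08 in control samples. For both, every interval between groups stayed within 1.5-fold, as it did for all 9 genes of complex III in each comparison. Uqcrc1, a core subunit, had 12.75, 12.99, 13.06 and 12.93 log2 in resolution samples, 13.07, 13.14 and 13.18 in acute samples and 13.10, 13.07, 13.005 and 13.10 in control samples. The resolution samples lay below all acute samples by a narrow margin, as 12.9% of all genes did. The difference was -0.20 log2 (SE 0.11, limma adjusted p = 0.267). Against control it was -0.14 (adjusted p = 0.408). Uqcr10, a small subunit, had the smallest p of complex III between acute and control, with 0.19 log2 and an adjusted p of 0.726.

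Cytochrome c (Cycs) had 15.46, 15.44, 15.20 and 15.19 log2 in resolution samples, 15.40, 15.50 and 15.48 in acute samples and 15.46, 15.51, 15.41 and 15.50 in control samples. The acute and control samples shared 1 range, and 2 of the 4 resolution samples lay below it. The difference between resolution and control was -0.14 log2 (interval -0.37 to 0.08, limma adjusted p = 0.395), that between acute and control -0.01 (adjusted p = 0.989) and that between resolution and acute -0.14 (adjusted p = 0.478).

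In complex IV only Cox7a2l passed, among 17 tested genes. The subunit Cox4i1, present in most tissues, averaged 16.09 ± 0.13 log2 in resolution, 16.19 ± 0.11 in acute and 16.15 ± 0.06 in control samples. Its counterpart Cox4i2, known from lung and from cells short of oxygen, was below background on all 11 arrays, at 4.95 to 5.95 log2, and so were the muscle forms Cox6a2 (5.57 to 6.11) and Cox8b (4.24 to 5.00) and the testis form Cox7b2 (5.15 to 6.03). These 4 had bounds rather than levels. The general forms Cox6a1, Cox7a2 and Cox8a were above background on every array. Cox6a1 averaged 15.65 ± 0.12 in resolution, 15.62 ± 0.10 in acute and 15.65 ± 0.06 in control samples. Cox7a2 averaged 15.87 ± 0.10 in resolution, 15.88 ± 0.05 in acute and 15.81 ± 0.08 in control samples. Cox8a averaged 14.66 ± 0.16 in resolution, 14.74 ± 0.07 in acute and 14.70 ± 0.09 in control samples. None of them passed the test in any comparison.

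Some complex IV forms known from heart, muscle or testis were measured. Cox7a1, the heart and muscle form of subunit 7a, had 10.07, 10.63, 10.22 and 9.88 log2 in resolution samples, 9.70, 10.08 and 9.86 in acute samples and 10.28, 9.97, 9.70 and 10.14 in control samples. Its groups overlapped, and the largest difference, 0.32 log2 between resolution and acute, had a limma adjusted p of 0.294 and was 0.18 without resolution replicate 2. Cox6b2, known as a testis form, averaged 13.77 ± 0.35 in resolution, 13.57 ± 0.05 in acute and 13.39 ± 0.19 in control samples, and the difference between resolution and control was 0.37 (SE 0.17, adjusted p = 0.144). Cox8c, another testis form, lay close to background at 6.20 to 6.84 log2. Cox5a, a subunit on the matrix side, had 15.52, 15.61, 15.65 and 15.31 log2 in resolution samples, 15.48, 15.62 and 15.48 in acute samples and 15.37, 15.35, 15.31 and 15.33 in control samples. Its acute samples were all above control, yet the difference of 0.19 log2 had an adjusted p of 0.660. With Cox5a, Sdhb and Ndufv2, Ndufa3 and Ndufs3 made up the 5 members whose acute samples all lay above control (5.38%, against 4.72% of all genes), and no member lay wholly below (5.39% of all genes did).

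**Figure D3:**
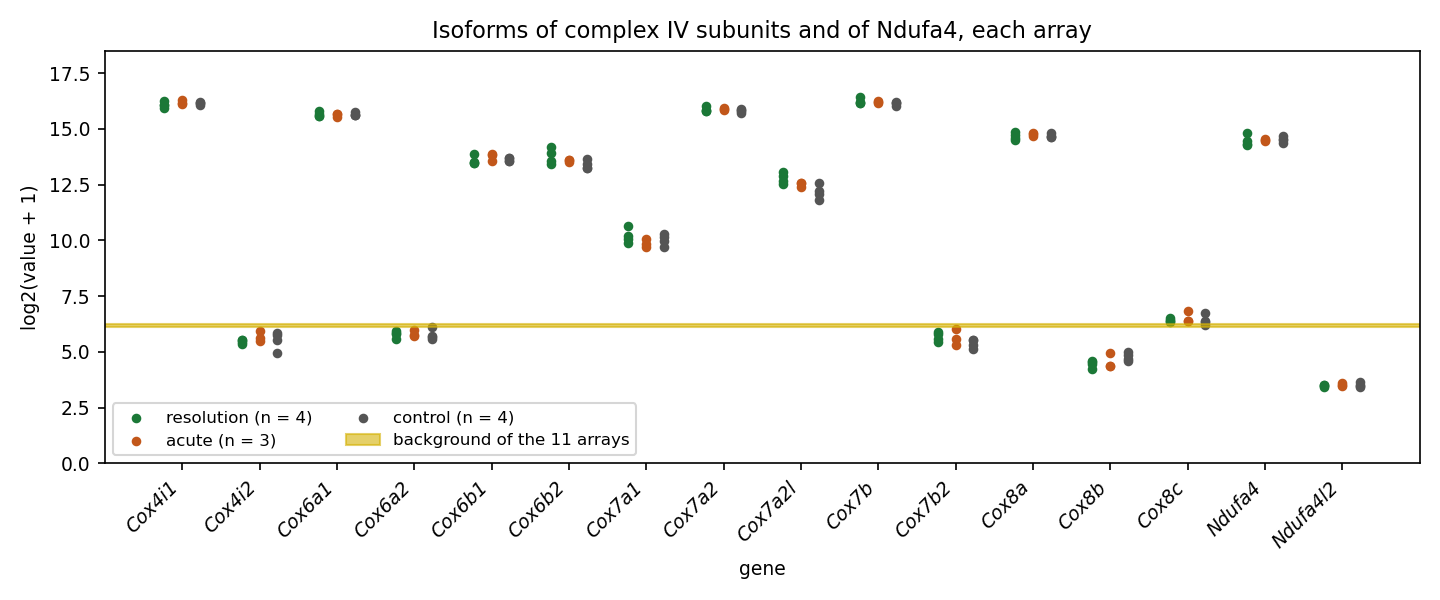
Level in log2(value + 1) of the isoforms of complex IV subunits and of Ndufa4 on each array, resolution (n = 4), acute (n = 3) and control (n = 4) from left to right within a gene. The band is the range of the arrays' backgrounds, 6.12 to 6.24 log2; Cox4i2, Cox6a2, Cox7b2, Cox8b and Ndufa4l2 lie below it on every array.

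The ATP synthase had no call among 17 genes. The catalytic beta subunit Atp5b had 16.72, 16.67, 16.67 and 16.74 log2 in resolution samples, 16.66, 16.72 and 16.70 in acute samples and 16.70, 16.74, 16.71 and 16.67 in control samples. No group stood out, and the interval between resolution and control ran from -0.20 to 0.19 log2. The alpha subunit Atp5a1 averaged 16.42 ± 0.10 in resolution, 16.53 ± 0.10 in acute and 16.48 ± 0.04 in control samples. No saturation flag was used for these bright signals. Atp5e, the small epsilon subunit of the central stalk, had 10.45, 11.24, 10.51 and 10.21 log2 in resolution samples, 10.72, 11.11 and 11.31 in acute samples and 10.63, 10.75, 10.48 and 10.69 in control samples. Resolution replicate 2 stood among the acute samples and the other 3 resolution samples below them. The difference between resolution and acute was -0.44 log2 (SE 0.22, limma adjusted p = 0.206), and without resolution replicate 2 it was -0.65 with an adjusted p of 0.0211. Between acute and control it was 0.41 (SE 0.22, adjusted p = 0.620). Atp5d, the delta subunit of the same stalk, had the smallest p between resolution and control, with 0.20 log2 and an adjusted p of 0.298 (0.11 without resolution replicate 2).

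The members moved together on single arrays. On resolution replicate 2, 79 of the 93 members were above their own 11-array mean, by a median of 0.25 log2. The other resolution replicates had medians of -0.08, -0.03 and -0.09, with 23, 39 and 23 members above. Among acute samples, replicate 1 had a median of -0.05 with 17 members above, and replicates 2 and 3 had 0.09 each, with 71 and 78 above. Control samples had medians of -0.08, -0.04, -0.10 and 0.04, with 22, 30, 13 and 65 members above. The shift was not limited to respiration. On resolution replicate 2, the 63 cytosolic ribosomal protein genes had a median of 0.15 log2 and the 74 mitochondrial ribosomal protein genes 0.29, whereas the median over all genes was 0.01. Without that array, 43 members in place of 66 were higher in resolution than in control, and the median difference was -0.01. Between resolution and acute, 21 in place of 41 were then higher, with a median of -0.08. Scaling the arrays to a common median gave 56 higher between resolution and control and 19 between resolution and acute. That scaling adds 1 constant per array, and it took the median of all genes to -0.04 between resolution and control and to -0.07 between resolution and acute, beside member medians of 0.03 and -0.08. Quantile normalization changed the counts less, to 68 higher between resolution and control and 39 between resolution and acute. The member medians were then 0.07 and -0.04, beside -0.03 and -0.07 over all genes.

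**Figure D4:**
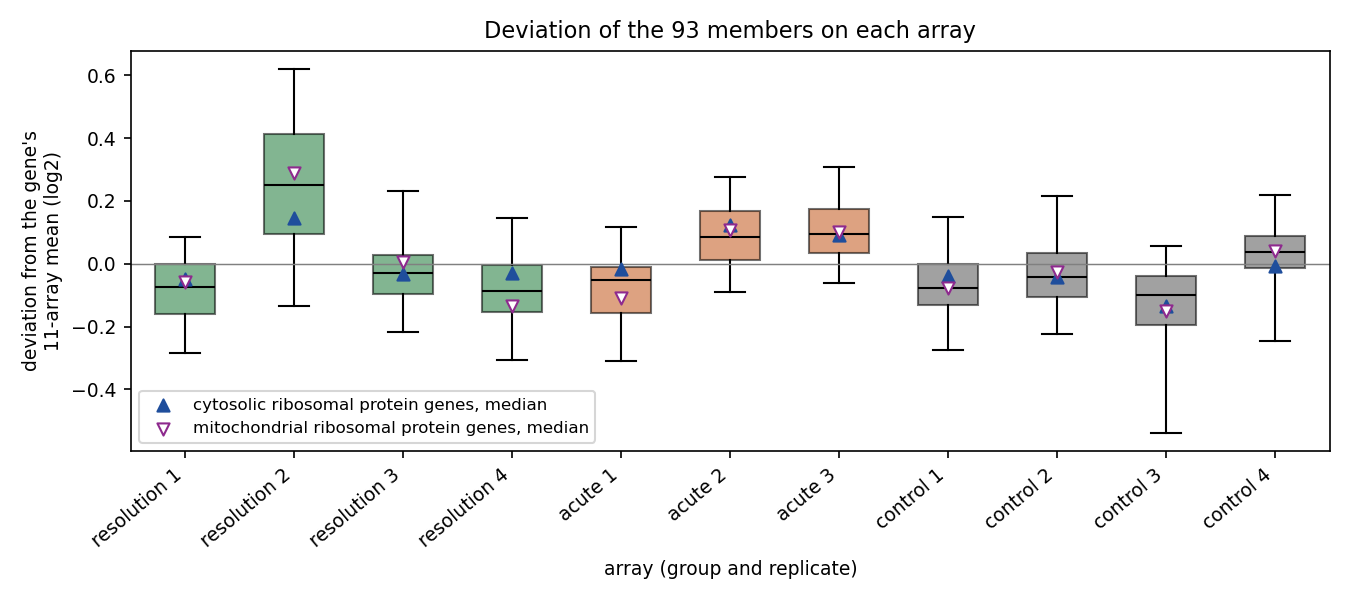
Deviation of the 93 members from their own 11-array mean (log2) on each array. Boxes span the quartiles with the median as a line and whiskers at the 5th and 95th percentiles; triangles are medians of the cytosolic and mitochondrial ribosomal protein genes, and resolution replicate 2 is highest in all 3 sets.

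Genes that assemble, regulate or feed the chain were counted in the same way. A list of assembly factors that do not follow the symbol rule had 38 tested genes. Of these 4 were higher and none lower between resolution and control (median 0.21 log2), none passed between acute and control, and 3 were higher and 1 lower between resolution and acute (median 0.15). In both directions together, these shares were below those of all genes given above, but they rest on few genes. At an unadjusted limma p under 0.05 the list was not below all genes in 2 comparisons. It had 31.6% against 31.3% between resolution and control, and 34.2% against 28.8% between resolution and acute. Between acute and control it had 7.89% against 9.06%. The shares called higher were close to the 9.6% and 7.76% of all genes called higher between resolution and control and between resolution and acute. Uqcc3, needed to assemble complex III, had 11.30, 11.79, 11.18 and 11.16 log2 in resolution samples, 11.04, 11.00 and 10.75 in acute samples and 10.67, 10.36, 10.18 and 10.80 in control samples. Every resolution sample was above every control sample, and the difference was 0.86 log2 (SE 0.17, 1.81-fold, limma adjusted p = 0.00432), past the threshold in all 22 alternatives. Atpaf1, a chaperone of the ATP synthase head, had 9.497, 9.90, 9.53 and 9.55 log2 in resolution samples, 8.78, 9.17 and 9.11 in acute samples and 9.12, 9.32, 8.75 and 8.998 in control samples. The resolution samples were above all others, with differences of 0.57 against control (adjusted p = 0.0179; 0.0535 without control replicate 3) and 0.60 against acute (adjusted p = 0.0272). The call against acute ended without acute replicate 1 (0.124), acute replicate 3 (0.0533) or resolution replicate 2 (0.0565), and under quantile normalization, which gave 0.42 log2. Both calls ended under median scaling (0.0526 against control and 0.0800 against acute). With control replicates 3 and 4 and resolution replicate 2 left out together, the difference against control was 0.31 log2 (adjusted p = 0.232).

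The other calls in this list were less firm. Lyrm7, a chaperone of the Rieske protein, was higher in resolution than in control by 0.57 log2 (limma adjusted p = 0.0400), and 10 of 22 alternatives kept the call. It ended without control replicate 1, 2 or 4, acute replicate 3 or resolution replicate 2, 3 or 4 (adjusted p of up to 0.107). Cox20, a chaperone of a mitochondrially encoded complex IV subunit, was higher by 0.36 (adjusted p = 0.0478), and 6 of 22 kept it. It ended without any single array other than control replicate 3 (adjusted p of up to 0.122). Between resolution and acute, Bcs1l, which inserts the Rieske protein, was higher by 0.85 (adjusted p = 0.0146; 0.0740 without acute replicate 1). Cox11, which delivers copper to complex IV, was higher by 0.51 (adjusted p = 0.0320), and 12 of 22 kept it. It ended without any acute array or resolution replicate 1, 2 or 4 (adjusted p of up to 0.0987). Coa7, a complex IV assembly factor, was lower by 0.77 log2 there, at 7.997, 8.70, 8.21 and 8.08 in resolution samples, against 8.73, 9.10 and 9.23 in acute samples (adjusted p = 0.0129; 0.0593 without acute replicate 3).

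Among 20 tested regulators of mitochondrial biogenesis and mitochondrial DNA, 1 was higher and 2 lower between resolution and control, none passed between acute and control, and 1 was higher and 1 lower between resolution and acute. The 3 called between resolution and control and the 2 between resolution and acute stand beside 18.6% and 14.4% of all genes. With 20 genes tested, such counts do not set the list apart from all genes. Tefm, the elongation factor of mitochondrial transcription, had 8.73, 8.81, 8.73 and 8.73 log2 in resolution samples, 9.48, 9.58 and 10.28 in acute samples and 9.72, 9.55, 9.58 and 10.14 in control samples. The resolution samples lay below all others. The difference was -0.996 log2 against control (SE 0.18, limma adjusted p = 0.00199) and -1.03 against acute (SE 0.19, adjusted p = 0.00375), both past the threshold in all 22 alternatives. Polg2, the accessory subunit of the mitochondrial DNA polymerase, had 6.62, 7.04, 6.91 and 6.64 log2 in resolution samples, 6.21, 5.85 and 6.25 in acute samples and 5.91, 5.17, 5.72 and 5.92 in control samples. It was above background on every resolution array and on 2 of 3 acute and 0 of 4 control arrays, and so was at least 1.56-fold higher than in control (adjusted p = 0.000871). That bound sets the resolution mean against the mean background of the control arrays, which was above their mean signal. The resolution mean lay 1.53-fold above the mean background of the acute arrays. Its signal was above background on 2 of these, so that value is no strict minimum. Resolution was higher than acute at a limma adjusted p of 0.0298, and 14 of 22 alternatives kept that call. It ended when any single acute array or resolution replicate 2 or 3 was left out, with an adjusted p of up to 0.118.

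Gabpb1, a subunit of the GA-binding protein whose ETS motif was counted above, had 6.88, 6.31, 7.18 and 6.94 log2 in resolution samples, 7.33, 7.03 and 7.11 in acute samples and 7.74, 7.54, 7.34 and 7.67 in control samples. Resolution was below control on every array, by 0.74 log2 in the mean (limma difference -0.74, adjusted p = 0.00982), and the call was kept in all 22 alternatives. Its DNA-binding partner Gabpa differed by -0.30 (adjusted p = 0.105). Nrf1, the nuclear respiratory factor itself, differed by 0.04 between resolution and control, and Tfam, which packs mitochondrial DNA, by 0.00. Tfam differed by 0.46 between acute and control (adjusted p = 0.438). The coactivator Ppargc1a was below background on all 11 arrays, and Ppargc1b differed by 0.27 between resolution and control (adjusted p = 0.161).

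The supply of electrons gave 1 call between resolution and control, where 18.6% of all genes passed. Among 18 other donors and carriers, Gpd2, which passes electrons from glycerol 3-phosphate to ubiquinone, was lower after resolution. It had 12.14, 12.14, 12.18 and 12.12 log2 in resolution samples, 12.07, 12.45 and 12.24 in acute samples and 12.48, 12.83, 12.56 and 12.71 in control samples. The resolution and acute samples were all below the control samples. The difference between resolution and control was -0.50 log2 (SE 0.12, limma adjusted p = 0.00994). The call was kept in 21 of 22 alternatives and ended with control replicates 3 and 4 and resolution replicate 2 left out together (-0.51, adjusted p = 0.0719). The difference between acute and control was -0.39 (SE 0.13, adjusted p = 0.341). None of the 16 tested citric acid cycle genes passed in any comparison, and the median was -0.03 log2 between resolution and control, -0.03 between acute and control and 0.04 between resolution and acute.

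**Figure D5:**
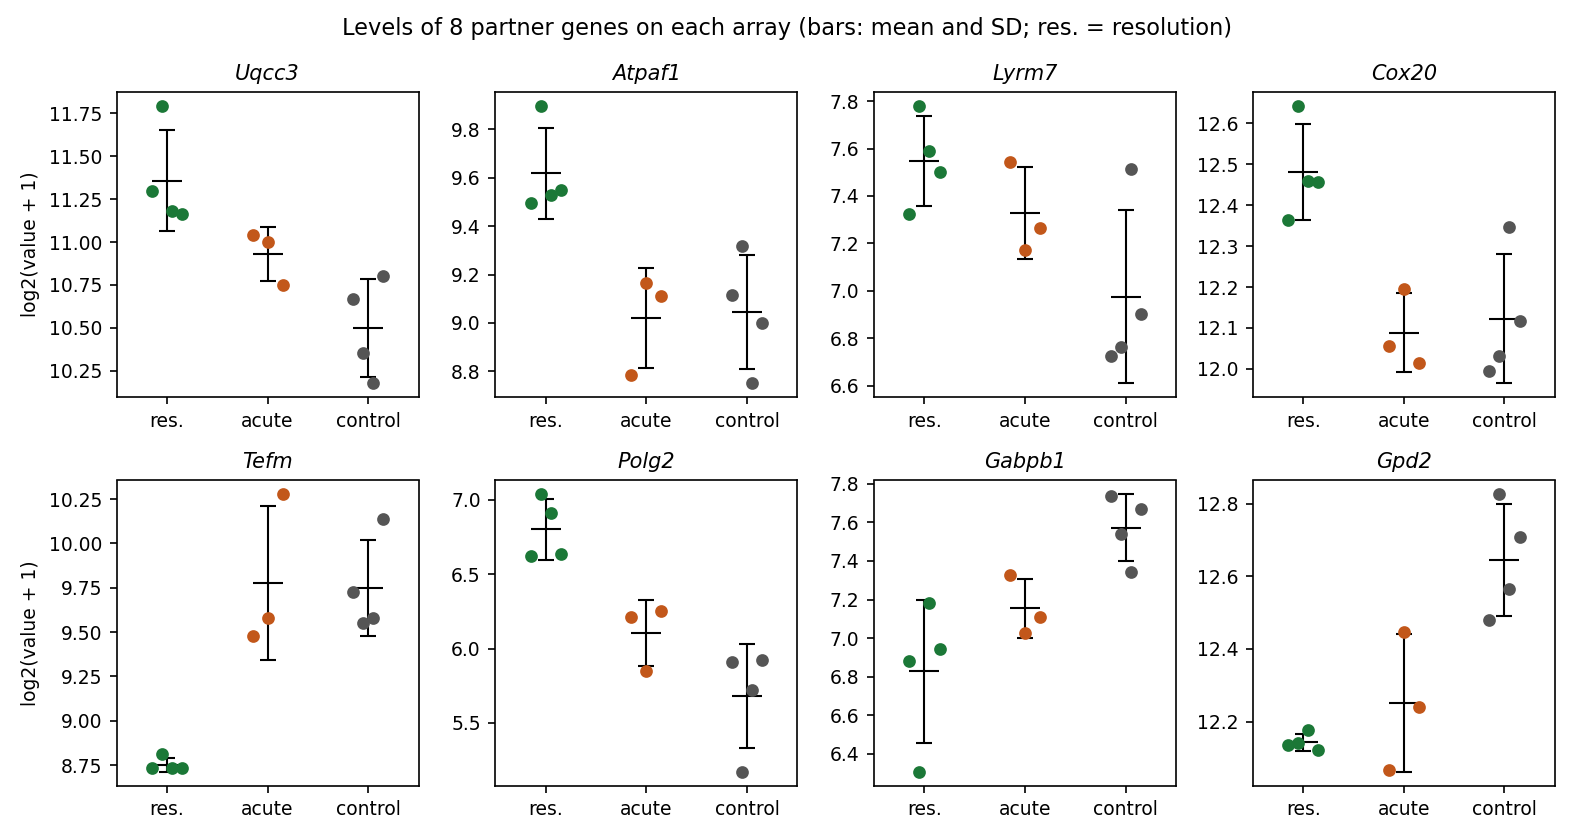
Level in log2(value + 1) of 8 genes that assemble, regulate or feed the chain, on each array, in resolution (n = 4), acute (n = 3) and control (n = 4) samples. Points are arrays and bars the mean and SD; resolution samples lie above control samples for Uqcc3, Atpaf1, Cox20 and Polg2 and below them for Tefm, Gabpb1 and Gpd2, and overlap them for Lyrm7.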

How the data were processed

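RNA of adherence-purified lavage cells was extracted with Trizol and labelled with a 3' IVT Pico kit, per the labels' protocols. The authors deposited 1 linear intensity per transcript cluster and array, made with Affymetrix Expression Console per the submitters' processing notes; the version, summary method and normalization were not given in the sources. Of 28846 clusters, 31 were controls, 19572 had 1 gene symbol in the platform annotation, 0 had several and 9243 had none. The deposited intensities were used as log2(value + 1) with no further scaling, and the cluster with the highest mean stood for a symbol. A gene was tested if at least 3 of 11 arrays exceeded that array's 40th percentile. All 11 arrays entered 1 fit of the 3 group means in limma 3.58.1 (R 4.3.3), with 8 residual and 4.48 prior degrees of freedom and Benjamini-Hochberg adjustment over 12146 genes at 0.05. The number of arrays limits the precision. The scripts were tested on simulated data.

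The members, gene lists and tests were chosen with earlier results of these data known. Named with values are, per complex and comparison, up to 5 members past the threshold or else the member with the smallest p, 22 preset subunits, and up to 4 genes of each list past the threshold. Some other genes were given values outside this rule, among them Ndufaf6, Ndufs7, Cox6b2, Cox7b2, Cox8c, Gabpa, Nrf1, Tfam and Ppargc1b. AA467197, a paralogue of Ndufa4, was not analysed here. No columns were identical. Alternatives changed the pseudocount (16), filter, scaling, variance model, samples fitted and cluster rule, used the replicate number as a block, or left out arrays.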

Additional observations from a re-analysis of the deposited data

Results flagged for a closer look

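In 54 groups of 4 samples, the resolution and the control samples of each named member above background, the distance of the highest or lowest sample to its neighbour was set against the whole range of the group. The ratio was above Dixon's 95% critical value in 5 groups, and chance passes about 1 in 20. The resolution samples gave 2 of these, both on replicate 2, which was also the array with the highest median of all members. Ndufv2 was at 13.54 log2 there against 12.87 to 12.97 in the other resolution samples (ratio 0.843). Uqcr10 was at 15.96 there against 15.49 to 15.56 (0.857). The control samples gave 3, on different arrays. Sdhd was at 10.13 in control replicate 3 against 10.57 to 10.61 in the others (0.923), Cox6a1 at 15.74 in control replicate 2 against 15.62 to 15.63 (0.895) and Cox8a at 14.83 in control replicate 4 against 14.65 to 14.67 (0.870).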

How the results depend on the processing

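The 22 alternatives were 11 single arrays left out and 11 other settings. One of these, leaving out control replicates 3 and 4 and resolution replicate 2 together, was chosen after seeing the data. In none did a called value change sign, and 105 of 123 results for named genes, called or not, stayed on their side of the threshold throughout. That count includes results far from the threshold. The call of Cox7a2l against control was kept in 18 of the 22, and those of Ndufaf7 in 15 against control and 9 against acute. Only the calls of Uqcc3, Gabpb1 and Polg2 against control, and of Tefm against control and acute, were kept in all 22. Between acute and control, no member passed in any of the 22. Between resolution and control, the 2 higher members became 1 with median scaling, 1 with the replicate block, 1 without those 3 arrays and 0 to 2 with single arrays left out; lower members became 1 without the 3 arrays and 0 to 1 with single arrays left out. Between resolution and acute, the 1 higher member became 0 with no filter, median scaling, quantile normalization, only the groups compared, the replicate block or the 3 arrays left out, and 0 to 1 with single arrays left out; 1 member was lower with array weights, 1 with only the groups compared, 3 without the 3 arrays and 0 to 2 with single arrays left out. The median of complex II between resolution and control was -0.15 without the 3 arrays, in place of 0.02. That of the complex I assembly factors between resolution and acute was -0.081 with quantile normalization, in place of 0.07. The cause of these moves was not tested. With the replicate block, Ndufaf7 had an adjusted p of 0.0573 between resolution and control and 0.0615 between resolution and acute. Then 17.5% of all genes passed between resolution and control and 12% between resolution and acute. Same-numbered samples of different groups correlated between -0.12 and 0.09 in their deviations from the group means (10 pairs, 0 above 0.1). In 2 pairs the best match was the same number. The labels link these samples only by number, and whether they shared a batch or day was not tested. Signals below background (5 members on every array) limit what could be seen of Cox4i2, Cox6a2, Cox7b2, Cox8b and Ndufa4l2.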
